A study of Mus musculus with 20 samples.

Results

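Left atria of adult mice heterozygous for the G125R allele of Tbx5 (Tbx5 G125R/+, here also "mutant") were compared with left atria of control mice, and this comparison of 5 libraries against 5 uses 10 of the 20 libraries of the series. Libraries were assigned by the atrium and the genotype in their labels, and the other 10 are right atria of the same genotypes, again 5 and 5. The allele is a point mutation that the study introduced in the mouse genome with CRISPR-Cas9 to model a family with Holt-Oram syndrome and atrial fibrillation, so that it is present in every cell of the animal. Every library came from a female aged 8 to 12 weeks and from whole tissue, without sorting of cells. The labels do not name a strain and do not identify animals, so they do not tell whether a left and a right library came from the same animal. Each p therefore measures a difference against the spread between the libraries of a group, which the labels do not separate into animals and technical repeats. In bulk tissue, fewer cells of a type and less RNA per cell cannot be told apart.

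Tbx5 is a T-box transcription factor that binds DNA near the genes of the atria, the atrial septum and the conduction system. Loss of a copy in humans causes Holt-Oram syndrome, with limb and septal defects and, in some carriers, disturbed conduction or atrial fibrillation. In the adult atrium Tbx5 acts with other cardiac factors on genes of calcium handling, ion channels and gap junctions.

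The left atrium table held 41128 genes. Values are normalized counts, that is reads divided by the size factor of the library. Of these genes, 13192 had a mean of at least 10 over the 10 libraries and were tested with limma on the log2 of the normalized count plus 1. A fold change below is a log2 difference on that scale, control subtracted from mutant, with its standard error (SE) from limma, and it understates the change of genes near 0. A gene was called at a Benjamini-Hochberg adjusted p under 0.05 over all 13192 genes, and every adjusted p given for a gene comes from limma unless another tool is named. A called gene is described as higher or lower, and "no overlap" means that all 5 mutant libraries lay on the same side of all 5 control libraries. Gene positions are those of the GENCODE M21 annotation on GRCm38 (mm10).

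The libraries held 19.1 to 24.8 M reads, of which 8.82 to 15.6 M lay outside the mitochondrial chromosome. The mitochondrial rRNA genes took 27.7, 29.2, 24.1, 46.7 and 34.0% of control libraries 1 to 5 and 19.5, 29.2, 33.4, 42.2 and 29.5% of mutant libraries 1 to 5, so that control 4 and mutant 4 were highest and the genotypes overlapped (32.3 ± 8.81% against 30.8 ± 8.20%, SD, n = 5, exact two-sided permutation p = 0.817). The slope of a library on the GC content of genes, in log2 units per 10% of GC, was 0.044, -0.278, -0.187, -0.156 and -0.191 in controls and 0.662, -0.013, -0.041, -0.227 and 0.387 in mutants. Mutants 1 and 5 thus had the steepest slopes of all 10, and the genotypes overlapped (exact two-sided permutation p = 0.119, where 5 against 5 can reach 0.00794). Bmp10, a growth factor gene that marks the right atrium, was at 0.996 to 30.1 normalized counts in the left libraries. Single libraries were high in a marker gene of another tissue, and the source of these reads was not tested. Control 5 held 902 normalized counts of Myl2, a ventricular myosin light chain, against 0 to 3.78 elsewhere, and control 1 held 795 of Ucp1, the brown fat uncoupling protein, against 0 to 12.9. Control 4 had 865 of the haemoglobin gene Hba-a1, against 20.5 to 144 in the others, and lung surfactant Sftpc was at 0 in every library.

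**Figure D1:**
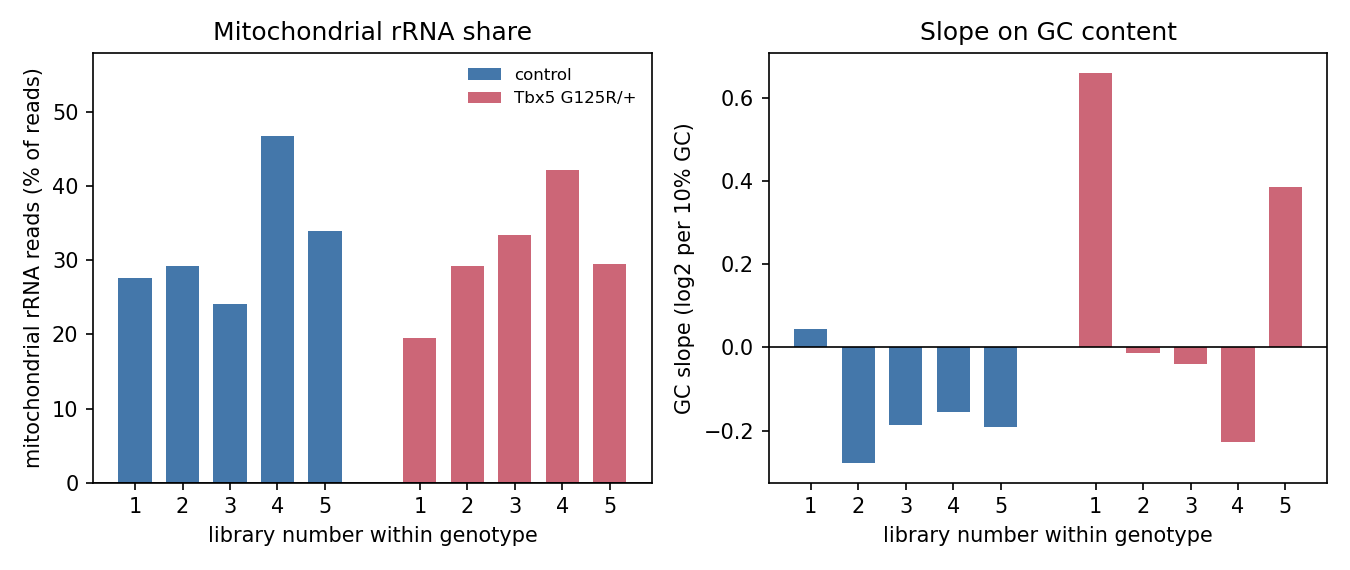
Share of reads from the mitochondrial rRNA genes (left panel, % of reads) and slope on GC content (right panel, log2 units per 10% of GC) of each left atrium library, with 1 bar per library, 5 control and 5 Tbx5 G125R/+. Control 4 (46.7%) and mutant 4 (42.2%) have the highest mitochondrial rRNA share, and mutants 1 (0.662) and 5 (0.387) the highest GC slope.

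Tbx5 itself (ENSMUSG00000018263, chromosome 5, 119832668 to 119885219) was present at 979, 1424, 1363, 1813 and 1716 normalized counts in control libraries 1 to 5 and 1629, 1385, 1454, 1337 and 1794 in mutant libraries 1 to 5. The genotypes overlapped, with control 1 lowest and control 4 highest of all 10, and the fold change was 0.08 ± 0.17 (SE, adjusted p = 0.794). The counts do not separate the mutant from the normal transcript.

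The question addressed is how the allele alters expression in this chamber. Expression of a small set of genes differed by many-fold: a cytoskeletal scaffold, a citrullinating enzyme, a lectin and a group of genes best known from neurons were higher, and a ribosomal S6 kinase, a water channel and an axonal adhesion gene were lower. Of 13192 genes, 100 were called higher (0.758%) and 58 lower (0.44%), together 1.2%. At that share gene lists of the sizes used below give few or no calls, so a low count in a list is a description. The median fold change of all tested genes was -0.01. Of the higher genes, 77 changed at least 2-fold and 26 at least 4-fold, against 33 and 6 of the lower genes. Most called genes were protein coding, 92 higher and 54 lower. Over all tested genes, 266 lay above control in every mutant library (2.02%) and 192 below (1.46%), together 3.47%, and these included 93 of the 100 higher and 54 of the 58 lower genes. An unadjusted p under 0.05 was reached by 2188 genes.

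Iqgap2, Padi2 and Lgals3 were among the higher genes of lowest adjusted p, with Il1rapl2, described below, at the value of Lgals3. Iqgap2 (ENSMUSG00000021676, chromosome 13, 95627177 to 95891922), which encodes a scaffold protein of the actin cytoskeleton and of small GTPases, was at 213, 188, 233, 251 and 269 normalized counts in controls 1 to 5 and at 2399, 2891, 2543, 1989 and 2187 in mutants 1 to 5. All mutants lay far above all controls, and the libraries within each genotype lay close together. The mean went from 231 ± 31.6 to 2402 ± 345 (SD, n = 5), a fold change of 3.37 ± 0.15 (SE, adjusted p = 1.11e-08). Padi2 (ENSMUSG00000028927, chromosome 4, 140906344 to 140952586), a peptidylarginine deiminase that converts arginine in proteins to citrulline, was at 15.5, 19.4, 25.5, 28.6 and 32.4 in controls and 404, 274, 237, 349.7 and 380.1 in mutants, a fold change of 3.72 ± 0.23 (adjusted p = 8.20e-07). Lgals3 (ENSMUSG00000050335, chromosome 14, 47367751 to 47386160), which encodes galectin-3, a lectin that macrophages make in quantity, was at 47.3, 22.8, 33.1, 18.5 and 38.2 in controls and 595, 479.8, 465, 236 and 855 in mutants, a fold change of 3.96 ± 0.32 (adjusted p = 1.08e-05). Mutant 4 held the least Lgals3 of the mutants and mutant 5 the most, and neither gene overlapped between genotypes. Relatives of these genes were not called: in the list of galectin, PAD and IQGAP families 3 of 9 tested members were higher and 0 lower, with a median fold change of 0.58. Over all tested genes 1.2% were called. The list was chosen with earlier results of these data known, and its 3 called members are Iqgap2, Padi2 and Lgals3, so its count and median are a description. These 3 calls stood under every alternative, with adjusted p of at most 0.00137, 0.00490 and 0.00137.

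**Figure D2:**
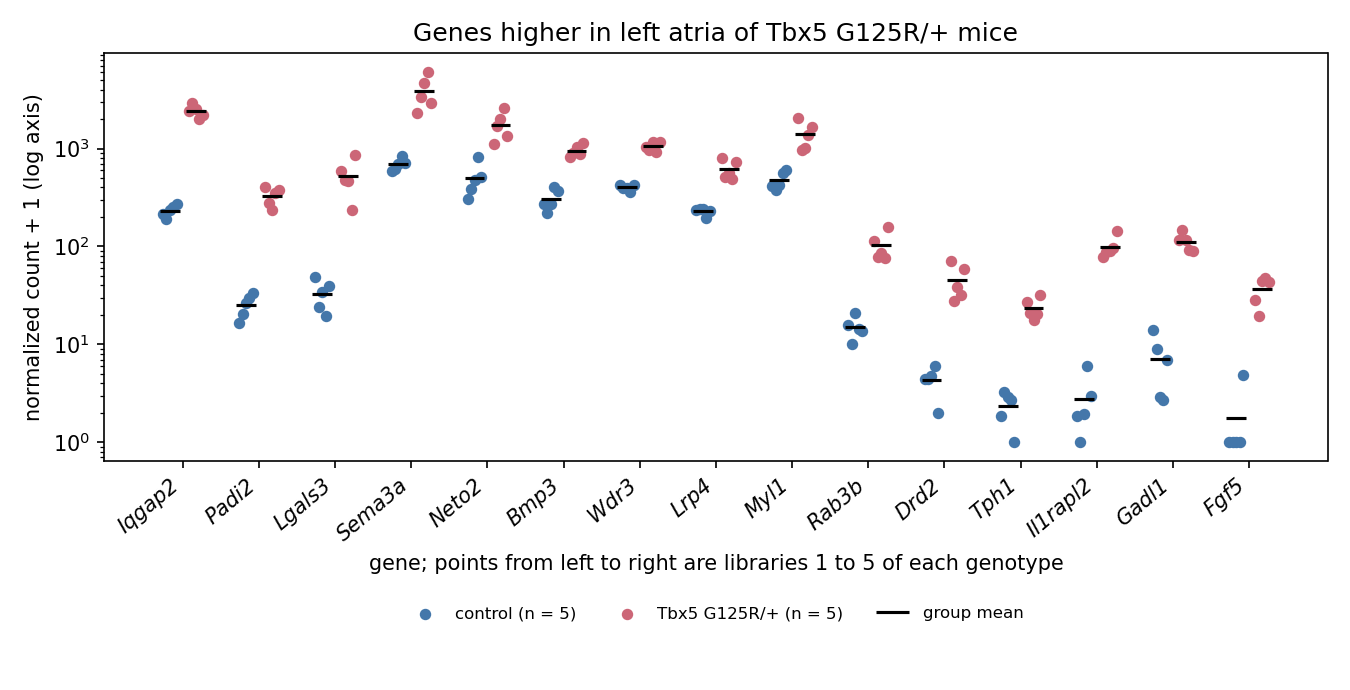
Normalized count plus 1 (log axis) of 15 genes that were called higher, in each of the 5 control (blue) and 5 Tbx5 G125R/+ (red) left atrium libraries, with the group mean as a black line. In all 15 the lowest mutant library lies above the highest control library, from Iqgap2 (means of 231 ± 31.6 and 2402 ± 345 normalized counts, SD) to Fgf5, which is at 0 in 4 of 5 controls. For genes named as the largest changes, this separation was a condition of their choice.

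Genes best known from neurons and synapses were called in both directions. Of 20 tested members of the list of neuronal and synaptic genes, 6 were higher and 2 lower, with a median of 0.21. The list holds genes already known to change in these samples, so its count is a description. Neto2 (ENSMUSG00000036902, chromosome 8, 85636588 to 85700924), an auxiliary subunit of kainate-type glutamate receptors, was the most abundant of the higher ones. It stood at 304, 386, 479, 812 and 506 normalized counts in controls and 1114, 1699, 2013, 2591 and 1353 in mutants. Control 4 and mutant 4 were the highest of their genotype, and the genotypes did not overlap (1.83 ± 0.26, adjusted p = 0.00203). Grin2c, a subunit of the NMDA receptor, was at 17.2, 33.0, 16.1, 30.3 and 29.4 in controls and 128, 76.8, 75.7, 66.1 and 113 in mutants (1.84 ± 0.27, adjusted p = 0.00315). Gria3, a subunit of the AMPA receptor, was called at 0.90 ± 0.20 (adjusted p = 0.0432) although mutant 1 lay below control 1. That call ended without control 2, 3, 4 or 5, or mutant 2, 3 or 5 (adjusted p 0.0526 to 0.126), and over all alternatives its adjusted p was 1.41e-04 to 0.215. The cadherin gene Cdh22 (2.79 ± 0.29, adjusted p = 1.27e-04) and Fam189a1 (2.67 ± 0.39, adjusted p = 0.00239) were higher without overlap. Conversely, Cntn2 (ENSMUSG00000053024, chromosome 1, 132509427 to 132543256), an adhesion protein of axons that also marks cells of the cardiac conduction system, was at 106, 61.5, 33.1, 74.2 and 43.1 in controls and 7.07, 3.66, 6.97, 4.81 and 7.13 in mutants. Its highest mutant lay below its lowest control by more than 4 times (-3.14 ± 0.34, adjusted p = 1.44e-04). Vsnl1, a neuronal calcium sensor, was lower by 1.61 (adjusted p = 0.0495), a call that ended without control 1, 2, 3, 4 or 5, or mutant 1, 2, 3 or 5 (adjusted p 0.0562 to 0.119; 0.00266 to 0.345 over all alternatives).

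Single genes with roles in axons or synapses outside that list were also higher. Sema3a (ENSMUSG00000028883, chromosome 5, 13125414 to 13602565), a secreted cue that repels growing axons, was at 593, 619.9, 688, 838 and 702 normalized counts in controls and 2281, 3341, 4714, 6108 and 2913 in mutants. Mutant 1 was the lowest mutant and still far above the highest control, and the fold change was 2.41 ± 0.23 (adjusted p = 4.92e-05). It was the only one of 41 tested axon guidance genes to be called, against 1.2% of all tested genes, and the median of that list was 0.01. Rab3b, a small GTPase of secretory vesicles, was at 14.6, 9.12, 19.9, 13.5 and 12.7 in controls and 113, 77.7, 85.6, 74.5 and 158 in mutants (2.76 ± 0.27, adjusted p = 6.52e-05). Il1rapl2 (ENSMUSG00000059203, chromosome X, 137570608 to 138846946), a receptor of the interleukin-1 receptor family that is expressed in the nervous system, had nearly no reads in controls, at 0.860, 0, 0.946, 5.06 and 1.96, and 77.8, 87.7, 88.6, 94.9 and 144 in mutants. With 5.40 ± 0.42 (adjusted p = 1.08e-05) it had the largest fold change of all called genes. Lrp4, the agrin receptor of the neuromuscular junction, rose without overlap from 228 ± 18.8 to 618 ± 136 (SD, n = 5), and Colq, which anchors acetylcholinesterase at that junction, rose from 10.2 ± 4.42 to 56.2 ± 17.3 (1.41 ± 0.16 and 2.41 ± 0.36, adjusted p = 2.65e-04 and 0.00315). Markers of neurons and glia themselves were not called: 0 of 10 tested members were higher or lower, the median was -0.02, and their summed level was 2696 to 3072 normalized counts in controls and 2226 to 3052 in mutants. With 1.2% of all tested genes called, a list of 10 gives few or no calls, so this count is a description.

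The called genes included Tph1, Drd2, Maob and Htr2a, which act in the making, breakdown or reception of monoamines. No list of such genes was tested, and others were not called: Slc18a2, the vesicular monoamine transporter, had -0.58 ± 0.27 (adjusted p = 0.297), and Slc6a4, the serotonin transporter, was at 44.1 to 160.0 normalized counts in controls and 36.1 to 79.2 in mutants. Tph1, which starts serotonin synthesis in peripheral tissues, was at 0.860, 2.28, 1.89, 1.69 and 0 normalized counts in controls and 26.2, 20.1, 16.9, 19.2 and 30.9 in mutants (3.42 ± 0.42, adjusted p = 4.84e-04). Drd2, a dopamine receptor, was at 3.44, 3.42, 3.78, 5.06 and 0.980 and 69.3, 26.5, 37.8, 31.2 and 57.8 (3.39 ± 0.39, adjusted p = 2.27e-04). Both were near the detection limit in controls, where no library exceeded 5.06. Maob, the monoamine oxidase that breaks down amines in mitochondria, was more abundant and rose without overlap, from 2432 ± 465 to 4847 ± 691 (SD, n = 5, adjusted p = 0.00458). The serotonin receptor gene Htr2a was called at 1.75 ± 0.33 (adjusted p = 0.0177), which ended without control 3 or mutant 1 or 3 (adjusted p 0.0551 to 0.0637; 8.44e-04 to 0.151 over all alternatives). Npy1r, which is a receptor of the peptide neuropeptide Y, rose by 1.03 (adjusted p = 0.0143), which ended without control 2 or 3 or mutant 3 (adjusted p 0.0516 to 0.0586; 7.18e-05 to 0.0586 over all alternatives). Drd2, Maob, Htr2a and Npy1r lie outside the rule for named genes and, like Lrp4 and Colq, were named after their values were known.

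The catalogue of ion handling genes taken from the study had 134 tested members, of which 5 were higher and 3 lower with a median of 0.03. The study analysed that catalogue on this series, so its count is not independent evidence. Hcn2 (ENSMUSG00000020331, chromosome 10, 79716634 to 79736108), which encodes a channel of the hyperpolarization-activated pacemaker current, was at 9.46, 7.98, 11.3, 6.74 and 6.86 normalized counts in controls and 41.7, 21.9, 13.9, 24.0 and 43.6 in mutants, with the lowest mutant above the highest control (1.57 ± 0.35, adjusted p = 0.0414). Its highest values were in mutants 1 and 5, the libraries of steepest GC slope, and Hcn2 is a gene of 65.4% GC. Without those libraries Hcn2 had a fold change of 1.13 (adjusted p = 0.404). The call of Hcn2 ended without control 1, 2, 3, 4 or 5, or mutant 1, 2 or 5 (adjusted p 0.0580 to 0.133; 2.17e-04 to 0.435 over all alternatives). Hcn4, the main isoform of the sinus node, was at 0 to 7.92 and was not tested.

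In the lists of potassium and calcium channels, each had at most 1 called gene. Kcnv2, a modifier subunit of voltage-gated potassium channels, fell from 397, 384, 301, 568 and 627 normalized counts in controls to 211, 226, 263, 186 and 287 in mutants (-0.92 ± 0.21, adjusted p = 0.0452), the only call among 20 such genes. That call ended without control 1, 2, 4 or 5, or mutant 1, 2, 3 or 5 (adjusted p 0.0550 to 0.106; 0.00198 to 0.244 over all alternatives). Cacna2d2, an auxiliary subunit of voltage-gated calcium channels, was lower in every mutant, at 111, 108, 93.6, 101 and 77.5 in controls and 70.7, 37.5, 38.8, 46.9 and 27.7 in mutants, with mutant 1 nearest to the controls (-1.19 ± 0.24, adjusted p = 0.0256). It was 1 of 11 tested, and its call ended without control 1, 2, 3 or 4, or mutant 2, 3 or 5 (adjusted p 0.0560 to 0.0873; 2.21e-04 to 0.133 over all alternatives). Rgs2, which shortens G protein signals, was the only call among 19 inward rectifier, KATP and muscarinic current genes (0.84 ± 0.18, adjusted p = 0.0333). It was at 2279, 3009, 2919.5, 2954 and 2316 in controls and 5080.1, 5702, 5717, 3133 and 4885 in mutants, and the call ended without control 1, 2, 3, 4 or 5, or mutant 1, 2, 3 or 5 (adjusted p 0.0526 to 0.102; 4.62e-04 to 0.318 over all alternatives). Of 8 SK and two-pore potassium channel genes 0 were called, with a median of 0.01, and of 18 gap junction and desmosome genes 0, with a median of 0.04 and fold changes between -0.34 and 0.58. The share of 1.2% called over all genes gives few or no calls in lists of these sizes.

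Among genes of calcium release, a partner of the inositol trisphosphate receptor was lower and the ryanodine receptor gene did not pass the test. Mrvi1 (ENSMUSG00000005611, chromosome 7, 110868266 to 110982461), a partner of the inositol trisphosphate receptor through which cGMP-dependent kinase acts on calcium release, was at 227, 173, 253, 246 and 441 normalized counts in controls and 105, 75.9, 66.7, 64.9 and 90.3 in mutants. Control 5 was highest and all mutants lay below all controls (-1.67 ± 0.23, adjusted p = 0.00186). It was the only one of 20 tested calcium release genes to be called (median -0.07). Ryr2, the release channel itself, had a fold change of 0.00 ± 0.25 (adjusted p = 0.997) and Atp2a2, the calcium pump of heart muscle, of 0.04 ± 0.32 (adjusted p = 0.954). Mutant 4 had the lowest value of both.

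Of 18 genes of calcium removal, 2 were higher and 0 lower (median 0.13). Atp2a1, the pump form of fast skeletal muscle, was at 7.74, 5.70, 3.78, 5.06 and 2.94 normalized counts in controls and 52.3, 22.8, 12.9, 14.4 and 31.7 in mutants (2.08 ± 0.41, adjusted p = 0.0214). Ppp1r1a, an inhibitor of protein phosphatase 1, was at 24.9, 21.7, 20.8, 21.9 and 25.5 and 94.0, 43.9, 74.7, 39.7 and 114 (1.52 ± 0.29, adjusted p = 0.0184). In both, every mutant lay above every control and mutants 1 and 5 were highest. The call of Atp2a1 ended without control 2, 3 or 5, or mutant 1, 2 or 5 (adjusted p 0.0540 to 0.0753; 3.14e-04 to 0.314 over all alternatives), and that of Ppp1r1a without control 2 or 3, or mutant 1, 3 or 5 (adjusted p 0.0533 to 0.0610; 4.99e-05 to 0.262). Pln (ENSMUSG00000038583, chromosome 10, 53337667 to 53345987), phospholamban, the inhibitor of the cardiac pump, was at 92559, 170438, 128475, 260017 and 216214 in controls and 41759.9, 60488, 72726, 108125 and 72297 in mutants. Its values overlapped, with control 1 below mutant 4, and the fold change of -1.26 ± 0.34 did not pass the test (adjusted p = 0.103). Of 29 alternatives 9 called it, among them DESeq2 on recovered reads (-1.29, adjusted p = 9.96e-04), all 4 groups in a single model (0.00262), array weights (0.00724), the mitochondrial rRNA share as a covariate (0.00762) and the GC trend removed (-0.95, 0.0423), and over all alternatives the adjusted p was 9.96e-04 to 0.466. In the right atrium Pln was called lower (-1.15 ± 0.11, adjusted p = 1.98e-05). The difference between atria was not called for it (-0.11 ± 0.35, adjusted p = 0.900). Pln was chosen after its values were seen.

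Myl1 and Tnni2, both known from fast skeletal muscle, were higher. Myl1 (ENSMUSG00000061816, chromosome 1, 66924295 to 66945404), an essential light chain of fast muscle myosin, was at 413, 375, 422, 559.5 and 603 normalized counts in controls and 2061, 967, 1012, 1375 and 1669 in mutants, without overlap (1.54 ± 0.22, adjusted p = 0.00186). Tnni2, the fast skeletal troponin I, was at 18.1, 6.84, 10.4, 27.0 and 9.80 and 178, 91.4, 78.7, 33.6 and 102 (2.63 ± 0.42, adjusted p = 0.00527). Mutant 1 held the most of both, and mutant 4 the least Tnni2. Without mutants 1 and 5 the call of Tnni2 ended (adjusted p = 0.0607; 2.30e-08 to 0.286 over all alternatives). Skeletal muscle markers did not move together: Tnni2 was the 1 call among 5 tested markers of 15 listed, their median was 0.03, and Myh4, a myosin heavy chain of fast fibres, was at 0 to 7.92 in all libraries. Among 39 genes of the sarcomere and its thin filament, 2 rose and 1 fell, with a median of 0.33. Fhl1, a LIM protein that binds titin and responds to stretch, was at 1901, 2864, 4049, 2375 and 3433 in controls and 5403, 5115, 5755, 6615 and 6796 in mutants (1.06 ± 0.19, adjusted p = 0.0136), 1 higher of 22 Z-disc and stretch response genes, and without mutants 1 and 5 its call ended (adjusted p = 0.0749; 1.14e-04 to 0.163 over all alternatives).

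Myl3 (ENSMUSG00000059741, chromosome 9, 110741861 to 110769798), the ventricular essential light chain, was the lower sarcomere gene, at 15.5, 15.95, 13.2, 37.1 and 126 normalized counts in controls and 2.83, 2.74, 0, 1.20 and 3.96 in mutants. All mutants lay below all controls, and control 5 was more than 3 times the next control (-3.38 ± 0.62, adjusted p = 0.0136). Control 5 is also the library with 902 normalized counts of the ventricular gene Myl2, and without it the fold change of Myl3 was -2.84 (adjusted p = 0.0247). Myl3 was the 1 call among 8 tested ventricular chamber genes, whose median was -0.18 and whose summed level was 100663 to 270464 in controls and 56446 to 116577 in mutants, mostly Pln.

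Single growth factor and matrix genes were called in both directions. Bmp3, a bone morphogenetic protein that restrains signals of its relatives, was at 269, 219.9, 273, 399 and 369.6 normalized counts in controls and 817, 888, 1027, 878 and 1133 in mutants (1.65 ± 0.18, adjusted p = 1.36e-04). All mutants lay above all controls, and Bmp3 was the only call among 44 tested BMP and TGF-beta genes, 34 of which had a negative fold change (median -0.32). Fgf5, a fibroblast growth factor, was at 0, 0, 0, 0 and 3.92 in controls and 27.6, 18.3, 43.8, 46.9 and 42.0 in mutants (4.66 ± 0.51, adjusted p = 1.63e-04, chosen after its values were seen). The extracellular matrix genes Frem3 (3.10 ± 0.30, adjusted p = 6.52e-05) and Cilp2 (1.89 ± 0.31, adjusted p = 0.00681) were higher. Cilp2, a gene of 65.5% GC, was not called with the GC slope as a covariate (adjusted p = 0.0583), without mutants 1 and 5 (0.0782) or without controls 1 and 5 (0.0567), and its adjusted p was 3.72e-06 to 0.106 over all alternatives. Collagens and other matrix genes were not: 0 of 40 were called, with a median of -0.11, a list size at which the share of 1.2% over all genes gives few or no calls.

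Wisp1 and Nov, which encode matricellular proteins of the CCN family, were lower, and Ctgf, a far more abundant member, had 0.42 ± 0.26 (adjusted p = 0.390). Wisp1 went from 789, 1444, 1216, 1136 and 705 normalized counts in controls to 339, 438, 368, 455 and 292 in mutants (-1.45 ± 0.20, adjusted p = 0.00188), and Nov from 155, 173, 150.4, 177 and 93.1 to 36.1, 48.4, 70.7, 64.9 and 28.5 (-1.61 ± 0.27, adjusted p = 0.00681). Neither Wisp1 nor Nov overlapped between genotypes. Igf2 (ENSMUSG00000048583, chromosome 7, 142650766 to 142666816), a fetal growth factor, was at 899.5, 476, 478, 403 and 672 in controls and 148, 218, 193, 107 and 175 in mutants (-1.77 ± 0.24, adjusted p = 0.00130), and was the only call among 12 insulin-like growth factor genes. Its imprinted neighbour H19, a noncoding RNA, was at 1676, 786, 540, 553 and 898 and 374, 413, 355, 196 and 322 (-1.33 ± 0.29, adjusted p = 0.0348). Control 1, the library with 795 normalized counts of Ucp1, was highest in both. Without control 1 the fold change was -1.60 for Igf2 (adjusted p = 0.00233) and -1.07 for H19 (adjusted p = 0.0399). The call of H19 ended without control 2 or 5, or mutant 1, 2, 3 or 5 (adjusted p 0.0534 to 0.0888; 3.87e-04 to 0.230 over all alternatives).

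Rps6ka6 (ENSMUSG00000025665, chromosome X, 111388192 to 111537959), the ribosomal S6 kinase RSK4, had the largest decrease of all called genes. It was at 286, 238, 288, 452 and 427 normalized counts in controls and 24.0, 43.0, 27.9, 39.7 and 15.05 in mutants, a mean 11.3 times lower in mutants (-3.50 ± 0.28, adjusted p = 1.08e-05). The lowest control held more than 5 times the highest mutant, and the call stood under every alternative (adjusted p of at most 0.0283). Among 25 kinases and MAP kinase scaffolds 1 was higher and 2 lower (median -0.08). Mapk10, the stress kinase JNK3, fell from 1256, 1212, 1397, 1419 and 1683 to 773, 822, 904, 693 and 932 (-0.75 ± 0.14, adjusted p = 0.0143), a call that ended without control 3 (adjusted p 0.0523; 4.56e-05 to 0.0719 over all alternatives). Dusp4, a phosphatase of MAP kinases, rose by 0.91 (adjusted p = 0.0263), a call that ended without control 2 or 3, or mutant 2, 3 or 5 (adjusted p 0.0713 to 0.0915; 2.10e-04 to 0.280).

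**Figure D3:**
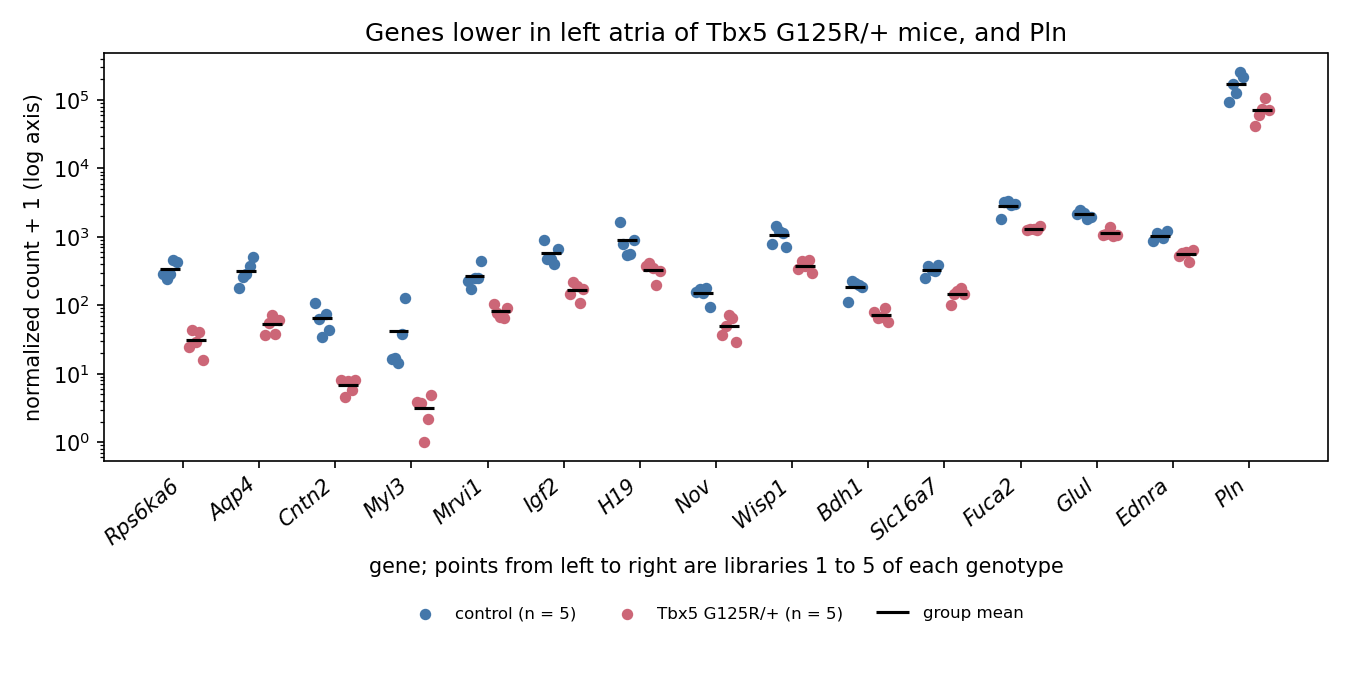
Normalized count plus 1 (log axis) of 14 genes that were called lower, and of Pln, which was not, in each of the 5 control (blue) and 5 Tbx5 G125R/+ (red) left atrium libraries, with the group mean as a black line. Rps6ka6 (338 ± 94.9 against 29.9 ± 11.5 normalized counts, SD) and Cntn2 (63.5 ± 28.5 against 5.93 ± 1.60) are widely separated, Myl3 is highest in control 5, and only Pln overlaps between genotypes. For genes named as the largest changes, no overlap was a condition of their choice.

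Further single genes of signalling and metabolism were lower. Aqp4, the water channel of astrocytes and muscle, was at 179, 259.8, 289, 369 and 508 normalized counts in controls and 35.4, 54.8, 70.7, 37.3 and 61.0 in mutants, without overlap (-2.57 ± 0.27, adjusted p = 1.36e-04). Nr4a3, a nuclear receptor that is induced within minutes of a stimulus, was at 385, 696, 933, 981 and 3353 and 138, 347, 178, 177 and 123 (-2.42 ± 0.44, adjusted p = 0.0136). Control 5 was more than 3 times the next control, and without it the fold change was -1.97 (adjusted p = 0.00917). The call ended with the GC slope as a covariate (adjusted p = 0.117) and without mutants 1 and 5 (adjusted p = 0.127), and its adjusted p was 4.22e-04 to 0.316 over all alternatives. Nr4a3 was the only call among 21 immediate early genes, 19 of which had a negative fold change (median -0.36), and their summed level was 30383 in control 5 against 7242 to 10875 in the other controls. Pde3a, a phosphodiesterase that degrades cAMP, was at 7172, 9063, 8309, 9112 and 8974 in controls and 3558, 6158, 5735, 5201 and 4527 in mutants (-0.78 ± 0.17, adjusted p = 0.0354), the only call among 28 adrenergic and cAMP genes, and the call ended without control 2, 3, 4 or 5, or mutant 1, 3 or 5 (adjusted p 0.0572 to 0.116; 2.80e-04 to 0.153 over all alternatives).

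Ketone body use had 0 higher and 2 lower of 8 tested genes (median -0.37). Bdh1, the enzyme that interconverts the ketone bodies, was at 111, 227, 214, 195 and 187 normalized counts in controls and 79.9, 64.9, 65.7, 91.3 and 57.0 in mutants (-1.35 ± 0.22, adjusted p = 0.00550). Slc16a7, a monocarboxylate carrier, was at 251.97, 370.3, 330.1, 315 and 386 and 101, 147, 163, 178 and 144 (-1.18 ± 0.18, adjusted p = 0.00404). Neither overlapped. None was called, against 1.2% of all tested genes, of 32 fatty acid oxidation genes (median -0.19), 28 glucose uptake and glycolysis genes (0.28), 45 nuclear genes of the respiratory chain (0.17) and 10 mitochondrial chromosome genes (-0.16), counts at which that share gives few or no calls. Glul, glutamine synthetase (-0.91 ± 0.14, adjusted p = 0.00358), Fuca2, a fucosidase (-1.09 ± 0.17, adjusted p = 0.00353), and Ednra, the endothelin A receptor (-0.92 ± 0.15, adjusted p = 0.00583), were abundant genes that fell without overlap and were picked with their values in view.

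Other large changes by the rule for named genes fell in no list. Gadl1, an enzyme that makes beta-alanine, was at 12.9, 7.98, 1.89, 1.69 and 5.88 normalized counts in controls and 117, 146, 115, 90.1 and 88.7 in mutants (4.25 ± 0.42, adjusted p = 6.52e-05). Hydin, a protein of motile cilia, went from 36.4 ± 6.63 to 188 ± 52.6 (SD, n = 5, adjusted p = 4.94e-05), and Mks1, a gene of the ciliary base that was chosen after its values were seen, rose by 1.93 (adjusted p = 0.00823). Prrg4 (1.82 ± 0.20, adjusted p = 1.63e-04), a transmembrane Gla protein, and Lxn (1.74 ± 0.21, adjusted p = 3.26e-04), an inhibitor of carboxypeptidases, were also higher. Lower genes included the meiotic cohesin gene Smc1b (-1.81 ± 0.34, adjusted p = 0.0155), the alcohol dehydrogenase gene Adh6b (-1.54 ± 0.28, adjusted p = 0.0136) and Abcd2 (-1.26 ± 0.20, adjusted p = 0.00504), a carrier of very long chain fatty acids into peroxisomes. Arxes2 was called at -1.46 ± 0.33 (adjusted p = 0.0489), and its reads may not be separable from those of its near-identical neighbour Arxes1. The strand used in counting is not given in the sources used here, so reads of Myl3 and Pth1r, of Lxn and Gfm1, of Atp2a1 and Rabep2, and of Igf2 and Igf2os, which overlap, may not be separable either. The same holds for other overlapping genes on opposite strands, among them Ednra and 4933431K23Rik, which was also called lower (-1.34), and Ampd3 and Rnf141. It also holds for Pln and Cep85l, Glul and Teddm2, Mrvi1 and Gm16336, and Cacna2d2 and Gm17141. Without mutants 1 and 5 the calls of Adh6b and Mks1 ended (adjusted p = 0.0782 for both; 1.04e-05 to 0.230 and 3.11e-06 to 0.167 over all alternatives). The call of Smc1b ended without control 2 (adjusted p 0.0547; 1.20e-05 to 0.118 over all alternatives) and that of Arxes2 without control 1, 2, 3, 4 or 5, or mutant 1, 2, 3 or 5 (adjusted p 0.0551 to 0.110; 0.00109 to 0.453).

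For lists of these sizes the share of 1.2% called over all genes gives few or no calls, so the counts of 0 that follow are a description. Among 8 genes that respond to the dose of Tbx5 none was called, and 7 of the fold changes lay between -0.14 and 0.06. The other was Gja5, the connexin of atrial muscle, at 0.58, and the median was 0.03. Nppa, the natriuretic peptide gene of that list, had 0.06 ± 0.26 (adjusted p = 0.907). Of 28 cardiac transcription factor genes 0 were called, 22 of them with a negative fold change (median -0.30). None was called among 22 genes of left and right atrial identity (median 0.06), 9 of the natriuretic peptide system (-0.03), 38 at atrial fibrillation loci (-0.02), 18 of the circadian clock (0.07), 24 heat shock proteins (-0.14) and 20 of the integrated stress response (0.05). The same held for 23 genes of prostaglandin and retinoid metabolism (-0.35), 14 of iron handling (-0.09) and 16 of the interferon response (-0.06). The 23 sinoatrial node genes had 2 higher, among them Hcn2, and 3 lower, Cntn2, Cacna2d2 and Vsnl1 (median -0.06).

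**Figure D4:**
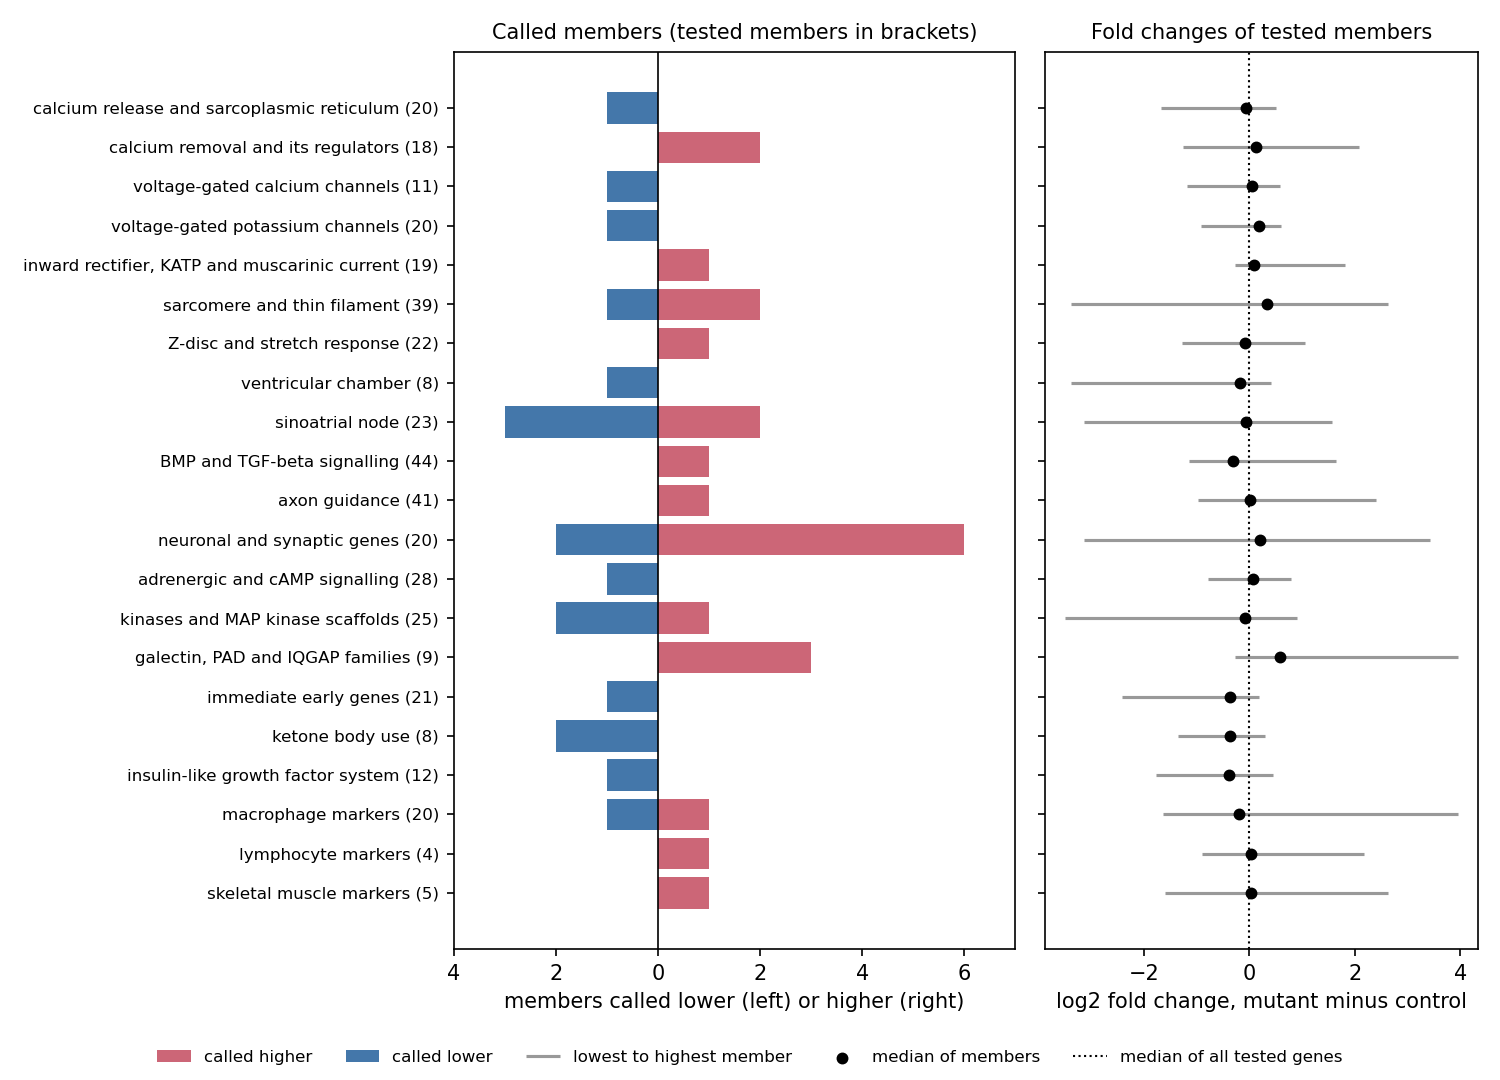
Gene lists with at least 1 called member in the left atrium, without the ion handling catalogue and the lists of sodium and pacemaker channels. Left panel: number of members called lower (blue, to the left) and higher (red, to the right), with the number tested in brackets. Right panel: lowest to highest log2 fold change of the tested members (grey line), their median (black point) and the median of all tested genes, -0.01 (dotted line). Among the lists drawn, the neuronal and synaptic one has the most called members, 6 higher and 2 lower.

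Markers of other cell types were examined by list. Lgals3 and Ccr2, a chemokine receptor of recruited monocytes, were the 1 higher and 1 lower of 20 macrophage markers (median -0.19), whose summed level was 3371 to 5499 normalized counts in controls and 3412 to 5558 in mutants. Csf1r, a receptor that defines macrophages, was at 104 to 262 in controls and 81.3 to 216 in mutants. Ccr2 was at 108, 221, 192, 104 and 229 and 29.0, 44.8, 61.7, 109 and 39.6, with mutant 4 at the level of controls 1 and 4 (-1.64 ± 0.34, adjusted p = 0.0263), and its call ended without control 2, 3 or 5, or mutant 1, 2, 3 or 5 (adjusted p 0.0547 to 0.0922; 2.42e-04 to 0.417 over all alternatives). Trac, the constant gene of the T cell receptor alpha chain, was at 6.02, 2.28, 1.89, 5.06 and 4.90 in controls and 26.2, 22.8, 13.9, 14.4 and 29.3 in mutants (2.18 ± 0.38, adjusted p = 0.0106), while the T cell gene Cd3e was at 0 to 2.84 in controls and 0 to 2.74 in mutants. The call ended with the GC slope as a covariate (adjusted p = 0.0886; 6.47e-05 to 0.229 over all alternatives). Trac was 1 of 4 tested lymphocyte markers of 16 listed, whose summed level was 55.9 to 108 in controls and 60.7 to 168 in mutants. All 13 mesothelial markers had a negative fold change (median -0.70) with 0 called. Their summed level was 29562, 12240, 12238, 29526 and 9185 in controls 1 to 5 and 5102, 11092, 12184, 11174.5 and 12759 in mutants 1 to 5. Controls 1 and 4 were thus far above the rest and mutant 1 was lowest, while the medians of the genotypes were 12240 and 11174.5. Adipocyte markers had a median of -0.79, with 0 of 11 called and sums of 6997 to 12099 in controls and 5266 to 6646 in mutants. Control 1 held the 12099, and the next control was at 7847. None was called among 15 fibroblast (median -0.22), 21 endothelial (-0.19), 15 smooth muscle and pericyte (0.41) and 13 atrial cardiomyocyte markers (0.26). The part of these cell types in the results was not tested.

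Some called genes lay near each other, and how often such pairs arise among called genes placed at random was not tested. With a distance of at most 500 kb, Ampd3, Rnf141 and Mrvi1 lay close together on chromosome 7, all lower (-0.74, -0.76 and -1.67). Ampd3 and Rnf141 overlap, and 23.8 kb separate Rnf141 from Mrvi1, with 1 tested gene between them that was not called. H19 and Igf2, 72.6 kb apart on the same chromosome, were both lower. On chromosome 9, Drd2 and Ttc12 lay 28.8 kb apart and were both higher (3.39 and 0.99). Pairs of opposite direction also occurred, such as Tnni2 and H19, 131 kb apart with 3 tested genes between them. The calls of Ampd3, Rnf141 and Ttc12 ended without several single libraries, with adjusted p of up to 0.0922, 0.0892 and 0.0705. Ampd3, Rnf141 and Ttc12 were named after their values were seen.

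Promoter sequence, from RefSeq on GRCm38.p6 with 250 bases before and 50 after the start, was matched by symbol for 66 of the 100 higher and 40 of the 58 lower genes. The T-box half-site was searched as AGGTGTGA on both strands, and 97 of 9095 promoters of tested genes (1.07%) held it. Among called genes it was in 2 higher (3.03%) and 0 lower ones, Igsf1, an immunoglobulin superfamily protein, and Zfp92, a zinc finger protein. Both are shown since they are the only called genes with the motif in this window, with the match in capitals, which reads as the reverse complement in Igsf1.
Igsf1 (chrX:49795315-49795614, minus strand): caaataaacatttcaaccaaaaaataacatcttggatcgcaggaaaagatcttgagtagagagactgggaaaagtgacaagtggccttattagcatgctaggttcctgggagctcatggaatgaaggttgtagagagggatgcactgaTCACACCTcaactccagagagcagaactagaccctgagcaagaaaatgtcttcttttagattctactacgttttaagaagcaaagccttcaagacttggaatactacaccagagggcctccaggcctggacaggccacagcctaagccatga
Zfp92 (chrX:73411310-73411609, plus strand): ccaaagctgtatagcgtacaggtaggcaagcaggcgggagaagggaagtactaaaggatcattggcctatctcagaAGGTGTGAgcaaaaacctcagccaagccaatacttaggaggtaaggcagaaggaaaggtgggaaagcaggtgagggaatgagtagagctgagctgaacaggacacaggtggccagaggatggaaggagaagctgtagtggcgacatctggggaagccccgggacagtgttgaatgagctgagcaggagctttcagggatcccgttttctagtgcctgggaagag
The site begins at base -102 in Igsf1 and -174 in Zfp92, counted from the start. Igsf1 was at 251, 153, 199.6, 236 and 275 normalized counts in controls and 581, 331, 415, 412 and 589 in mutants (1.05 ± 0.20, adjusted p = 0.0184), and Zfp92 at 13.8, 5.70, 5.67, 10.1 and 12.7 and 32.5, 25.6, 38.8, 21.6 and 29.3 (1.58 ± 0.32, adjusted p = 0.0258). All mutants lay above all controls for both genes. The call of Igsf1 ended without control 2 or 3 or mutant 5 (adjusted p 0.0551 to 0.0614; 1.63e-04 to 0.128 over all alternatives) and that of Zfp92 without control 2 or 3, or mutant 1, 2, 3 or 5 (adjusted p 0.0583 to 0.0909; 7.05e-04 to 0.230). A GATA site, AGATAA, was in 6 higher (9.09%) and 5 lower genes (12.5%) against 7.85% of promoters. A MEF2 box was in 2 (3.03%) and 1 (2.5%) against 3.72%, and a GC box, GGGGCGGGG, in 19 (28.8%) and 12 (30%) against 24.3%. A match is a run of letters and not a site of binding.

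The GC content of a gene moved with its fold change. The median fold change was -0.24 over 3931 genes under 45% GC, -0.04 over 3591 genes of 45 to 50%, 0.17 over 3261 genes of 50 to 55% and 0.30 over 2338 genes above 55%. In the first bin 19 genes were higher and 22 lower, and in the last 26 and 6. Of the higher genes 51.5% had more than 50% GC, against 27.6% of the lower and 42.5% of all tested genes. With the GC trend of each library removed, 123 genes were higher and 72 lower, and with the GC slope as a covariate 60 and 36. Of 84 called genes that the text or its rule names, 31 ended with that covariate and 6 with the trend removed, and 0 changed sign under any alternative in which they were tested. The part of GC content in any single call was not tested further. Iqgap2, Padi2, Lgals3, Sema3a, Neto2, Bmp3, Rps6ka6, Aqp4 and Wisp1 were among 21 that were tested and called under every alternative.

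The right atrium of the same genotypes gives a further view of these genes. Of the 100 genes higher in the left atrium, 94 were tested in the right, all 94 had a positive fold change there, and 83 were called higher, which is 83.0% of the left list and 18.8% of the 442 genes called higher in the right atrium (3.09% of genes tested there). Of the 58 lower genes, 56 were tested, 54 had a negative fold change and 41 were called lower, 70.7% of the left list and 9.15% of the 448 lower right atrium genes (3.14%, and 6.23% in either direction). No gene was called in opposite directions. The left and right estimates lay close together for some genes and further apart for others: Iqgap2 had 3.37 left and 3.69 right and Sema3a 2.41 and 2.53, while Rps6ka6 had -3.50 and -1.89, Cntn2 -3.14 and -1.33, Myl3 -3.38 and -1.53, Nr4a3 -2.42 and -0.37, Igf2 -1.77 and -0.64, and Grin2c 1.84 and 0.81. None of these genes was called for the difference between atria. All were picked from the left atrium calls, so these gaps do not establish that the sizes differ. The labels do not tell whether the atria share animals, so these counts are a description.

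**Figure D5:**
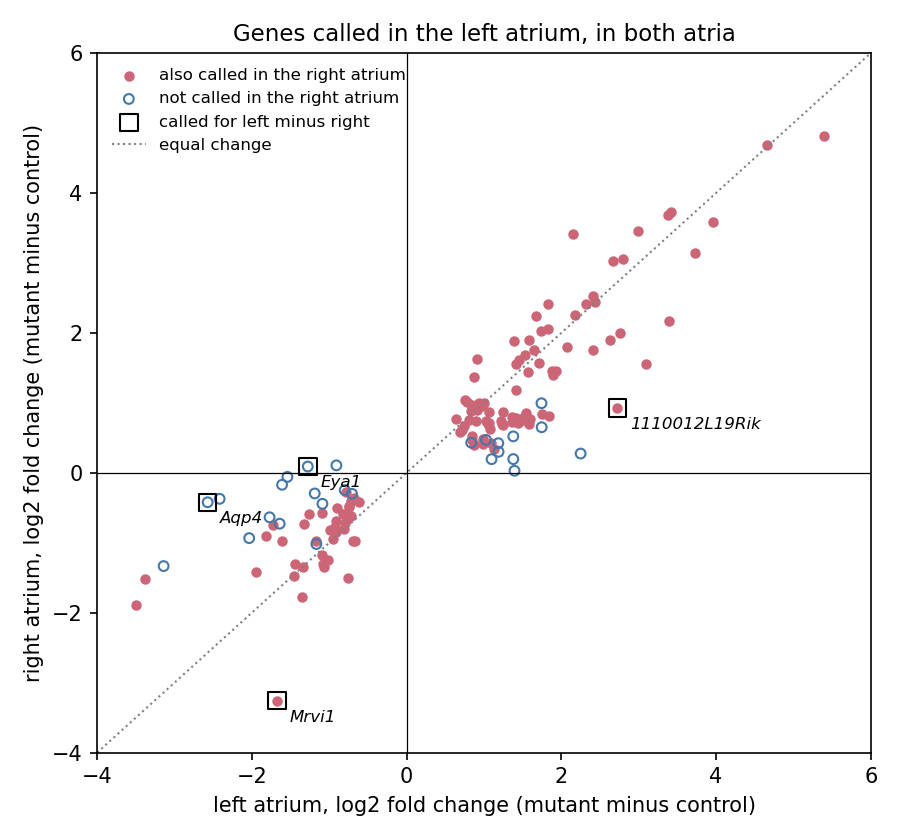
Log2 fold change (mutant minus control) in the left atrium (x axis) against the right atrium (y axis) for the genes called in the left atrium and tested in both. Filled red points were also called in the right atrium (83 higher and 41 lower), open blue points were not, squares mark genes called for the difference between atria, and the dotted line marks equal change.

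The difference between atria was tested as the left fold change minus the right one over all 20 libraries, each fold change being taken within its own table since the tables were normalized separately. It was called for 10 of 14507 genes (0.0689%), 3 with a more positive and 7 with a more negative value in the left atrium. Aqp4 had a fold change of -2.57 ± 0.27 left and -0.42 ± 0.21 right (adjusted p = 0.277 in the right), a difference of -2.15 ± 0.37 (SE, adjusted p = 0.0257, and 0.0512 with the GC trend removed). The right libraries held 189.6, 144, 184, 197 and 314 normalized counts in controls and 132, 124, 151, 122 and 235 in mutants, which overlap. Eya1, a transcription cofactor and phosphatase, was at 84.3, 116, 109, 77.5 and 81.4 in left controls and 24.0, 46.6, 35.8, 51.7 and 35.6 in left mutants (-1.28 ± 0.24, adjusted p = 0.0141), with 0.09 ± 0.08 right and a difference of -1.37 ± 0.24 (adjusted p = 0.0257). The left call of Eya1 ended without control 2 or 3 (adjusted p 0.0562 to 0.0586; 3.25e-05 to 0.248 over all alternatives).

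Mrvi1 fell in both atria and further in the right, with -1.67 ± 0.23 left and -3.26 ± 0.15 right and a difference of 1.58 ± 0.29 (SE, adjusted p = 0.0291). 1110012L19Rik, a gene named only by its clone, was at 88.6, 55.8, 47.3, 60.7 and 54.9 normalized counts in left controls and 648, 302, 342, 377 and 414 in left mutants. It rose in both atria and more in the left, with 2.72 ± 0.22 and 0.93 ± 0.14 and a difference of 1.80 ± 0.28 (adjusted p = 0.0227). Nfasc, an axonal adhesion gene, was scarce in the left atrium, at 1.72, 1.14, 1.89, 1.69 and 0.980 in controls and 3.54, 4.57, 2.99, 3.61 and 0.792 in mutants and below the filter, but rose in the right by 3.34 ± 0.25 (adjusted p = 3.49e-06), a difference of -2.70 ± 0.44 (adjusted p = 0.0227).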

How the data were processed

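RNA of whole left and right atria of female mice was extracted with the ReliaPrep system and made into libraries with the TruSeq RNA kit v2, per the labels. The submitters' processing notes name STAR, DESeq2 and mm10. The strand used in counting is not given in the sources used here. The authors deposited, for each atrium, a table of signal values, which are read counts divided by a size factor of the library, besides columns of log2 fold changes and adjusted p-values of their own comparison, which were not used here. No sample column was left unused (0). Whole reads were recovered for 100% of values within 0.05 of a whole number in the libraries where 1 read is not worth about 1 (all but left mutant 3, where the check has little power). The right atrium table held 40924 entries, of which 6275 without values and 1203 repeats were left out.

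The main test was limma 3.58.1 (R 4.3.3) with a trended prior on the log2 of the normalized count plus a pseudocount of 1, over genes with a mean of at least 10, for the 5 mutant against the 5 control libraries, with Benjamini-Hochberg adjustment. It was tested on simulated data. Library properties were compared with exact permutation tests (scipy 1.17.1). Alternatives were another pseudocount, filter or normalization, covariates for the GC slope and mitochondrial rRNA share, a replicate block, all 4 groups in a single model, array weights, edgeR 4.0.16 and DESeq2 1.42.0 on recovered reads, and leaving out each library. Leaving out control 4 and mutant 4, controls 1 and 5, or mutants 1 and 5 was chosen after seeing the data. Named genes were Tbx5, the called genes of largest change (15 up, 15 down) whose mean was 50 or more, without overlap and without a predicted or clone-like symbol, called members of 51 gene lists (6 of lowest adjusted p at most, or 3 of highest mean where none was called), and up to 5 of each sign for the difference between atria. Members and lists were chosen with earlier results of these data known. Some items are not reported here.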

Additional observations from a re-analysis of the deposited data

Results flagged for a closer look

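With 96 groups of 5 libraries examined, 6 held a library whose gap to the nearest other exceeded Dixon's critical value of 0.71, and chance gives such a gap in about 1 in 20 groups. Control 5 had 24.8 M reads, against 19.1 to 20.7 M in the other controls. The same library had 126 normalized counts of Myl3 (others 13.2 to 37.1), 3353 of Nr4a3 (others 385 to 981) and 3.92 of Fgf5 (others 0). Mutant 2 had 347 normalized counts of Nr4a3, against 123 to 178 in the other mutants, and mutant 5 had 144 of Il1rapl2, against 77.8 to 94.9. The part of these libraries in the results was not tested beyond leaving them out.

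The effect of genotype differed between the atria in the test of the difference itself for 10 genes (limma, adjusted p under 0.05 over 14507 genes). On the log2 scale, left minus right, the difference was 1.80 for 1110012L19Rik, 1.58 for Mrvi1 and 1.25 for Kif1a, a kinesin motor of axons. It was -2.70 for Nfasc, -2.15 for Aqp4, -2.09 for Phlda1, -1.37 for Eya1, -1.19 for Fam107b and -1.16 for Tmtc2. Nfasc was at 0.792 to 4.57 normalized counts in the left libraries, where this scale understates a change, so the size of its difference is uncertain. In Phlda1, Fam107b and Tmtc2 the right atrium rose (1.80 ± 0.29, 0.66 ± 0.08 and 0.78 ± 0.09) and the left did not pass the test (-0.30 ± 0.24, -0.53 ± 0.20 and -0.38 ± 0.17). Kif1a fell in the right (-0.57 ± 0.11) and had 0.68 ± 0.26 in the left (adjusted p = 0.246). With the GC trend removed the difference was not called for Kif1a (adjusted p = 0.0763) or Aqp4 (0.0512), and with the replicate number as a block it was called for Aqp4 and Mrvi1 only. Fam107b and Tmtc2 fell outside the rule for named genes and were named after their values were seen.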

How the results depend on the processing

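The 158 left atrium calls became 406 with DESeq2 on recovered reads (158 shared), 1233 with all 4 groups in a single model (155 shared), 780 with array quality weights (158 shared), 289 with the mitochondrial rRNA share as a covariate (158 shared) and 96 with the GC slope as a covariate (81 shared). They became 245 without control 4 and mutant 4 (129 shared), 99 without controls 1 and 5 (87 shared) and 77 without mutants 1 and 5 (68 shared). Leaving out 1 library gave 71 (without control 2) to 370 calls (without mutant 4). With the replicate number as a block 693 genes were called (158 shared), and 35 with the block and the GC slope as a covariate (32 shared). Deviations of same-numbered control and mutant left libraries correlated at 0.364, 0.246, 0.0653, 0.318 and 0.313. The highest correlation of each control with a mutant of another number was 0.164, 0.351, 0.127, 0.116 and 0.0513. The same number was higher for controls 1, 4 and 5 and lower for controls 2 and 3, so the numbers were not taken to pair samples. Whether libraries of a number share a batch was not tested. Of 84 named called genes, 47 were tested and kept their call without each single library, and 21 in all 29 alternatives. Tph1 fell below the filter without 1 library, and 17 of the 84 genes were not tested in some alternative. The 10 differences between atria became 17 with a pseudocount of 5 (9 shared) and 2 with the replicate block, Aqp4 and Mrvi1, while the other 8 had an adjusted p of 0.0609 to 0.161. Same-numbered left and right libraries correlated at 0.339 to 0.526 in controls and -0.0861 to 0.268 in mutants. The highest correlations with another number were 0.167 to 0.446 in controls and 0.0549 to 0.198 in mutants.

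The Tbx5 fold change of 0.08 turned to -0.049 with the GC trend removed, -0.28 with the block and GC slope, -0.010 without controls 1 and 5 and -0.037 without mutants 1 and 5, and was -0.053 to 0.17 leaving out 1 library. The difference in mitochondrial rRNA share, -1.56 percentage points, was -4.41 to 2.05, and that in GC slope, 0.31, was 0.18 to 0.40 (exact p = 0.0476 without mutant 4). Genes that were not called also changed sign: Phlda1 had 0.015 with the GC slope as a covariate. Ryr2 had -0.24 with that covariate, -0.050 with the GC trend removed, -0.052 with the mitochondrial share, -0.27 with block and GC slope, -0.15 without mutants 1 and 5, and -0.082 to 0.23 leaving out 1 library. Atp2a2 had -0.071 with that covariate, -0.15 with block and GC slope, -0.088 without mutants 1 and 5, and -0.043 to 0.16 leaving out 1 library. Nppa had -0.21 with the GC trend removed, -0.086 without controls 1 and 5, and -0.11 to 0.19 leaving out 1 library. The cause was not tested. Genes near 0 counts are limited by depth.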
